A study of Homo sapiens with 9 samples.

Results

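The 87 genes for the proteins of the cytosolic ribosome were examined in a knockdown experiment on ORM1, which encodes the acute-phase plasma protein orosomucoid 1. They were taken from 61806 gene identifiers as the protein-coding genes whose symbol is RPL or RPS followed by a digit, with RPLP0, RPLP1, RPLP2 and RPSA. The RPS6K kinases, RPS19BP1, RPS27L, RPS4Y1, RPS4Y2 and all pseudogenes were left out. Of the 87, 55 belong to the large (60S) subunit and 32 to the small (40S) subunit. They include 7 paralogs of another ribosomal protein and 3 readthrough genes that join a ribosomal protein gene to its neighbour, which leaves 77 core genes. HCT116 cells, a line established from a human colorectal carcinoma, had been transfected by lipid reagent with ORM1 siRNA1, ORM1 siRNA2 or a control siRNA. Each group held 3 libraries of total RNA, and all 9 carried the same batch value of day 3. Whether the replicates were separate cultures is not stated in the labels, so a p-value here reflects only library-to-library spread, part of which may be technical. The siRNA sequences and the content of the control siRNA were not given in the sources used here.

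A ribosome is built from ribosomal RNAs and one copy of most of its proteins, so the proteins are needed in matched amounts and the genes are among the most highly expressed of a growing cell. Most of their mRNAs begin with a terminal oligopyrimidine (TOP) tract, a C at the first base followed by more pyrimidines, through which mTORC1 and the RNA-binding protein LARP1 control their translation and stability together. Some of the proteins also act off the ribosome: RPL5 and RPL11, with the 5S rRNA, bind and inhibit the ubiquitin ligase MDM2.

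ORM1 had 0, 0 and 5 counts in the siRNA1 libraries, 8, 0 and 12 counts in the siRNA2 libraries, and 63, 56 and 59 counts in the control libraries. It was called lower under siRNA1 (adjusted p = 0.0029) and under siRNA2 (adjusted p = 0.019) by the quasi-likelihood test of edgeR, adjusted after Benjamini and Hochberg over all 20932 tested genes, which stands behind every call given here. The call under siRNA2 was lost when siRNA2 replicate 1 or any 1 control library was left out, with adjusted p = 0.05 to 0.057. It was also lost without a filter on low counts (0.054), with DESeq2 (0.072) and without replicate 1 of every group (0.093). Low counts in the table were uneven: over all genes and libraries the value 4 occurred 11894 times, 3 occurred 6787 times and 5 occurred 4317 times. A count may therefore not be 1 fragment, and the small ORM1 counts and any limit set by a count of 0 are approximate. The depth was 60698684 to 71431723 counts per library. Levels are counts per 1000000 (CPM) after TMM scaling, ± gives the SD over 3 libraries, and a gene was called at an adjusted p below 0.05. The epithelial genes EPCAM, KRT8, KRT18, KRT19, CDH1 and CDX2 were detected in every library, whereas VIL1 had at most 0.18 CPM and CEACAM5 had 0 counts. Of 9 epithelial markers, not all named here, 7 were tested. Under siRNA1 3 were called higher and 3 lower (85.7%), and under siRNA2 2 higher and 3 lower (71.4%). All tested genes were called at 30.5% and 26.7%. Among markers of other cell types, PTPRC, CD3E, DCN and APOA1 were at or near 0, while COL1A1 averaged 47.9 ± 1.33, 42.5 ± 1.77 and 54.1 ± 4.2 CPM and CD68 11.5 ± 1.3, 7.61 ± 1.86 and 9.68 ± 0.237 CPM in siRNA1, siRNA2 and control libraries. Of 10 markers of other types, not all named here, 5 were tested and 1 was called lower under each siRNA (20%). The log2 changes of these 5 ran from -1.54 to 0.25 under siRNA1 and from -1.88 to -0.35 under siRNA2. In bulk RNA, fewer cells that express a gene and less of its RNA per cell cannot be told apart.

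The letters at the start of the mRNA are what most of these genes share, and they are shown for the members that the results below turn on. The 30 bases run from 5 before to 25 after the annotated start, 5′ to 3′ on the transcript strand, from RefSeq on GRCh38.p14. Capitals mark the unbroken pyrimidine tract that begins with a C at the annotated start.
RPL11: gctttCTCTTCCTgctctccatcatggcgg
RPL31: gcgctCTTCCTTTCCaacttggacgctgca
RPLP0: gaggcCCTTCTCTCgccaggcgtcctcgtg
RPLP1: gagagCCCCTTTCCTCagctgccgccaagg
RPSA: cctgtCTTTTCCgtgctacctgcagagggg
RPL22: acctcCCTTTCTaactccgctgccgccatg
RPL22L1: gcttcCTCTCTgctctcgcggccgactcgc
RPL26: tagttCTCTTCCCTTTTgcggccatcaccg
RPL26L1: gggtcggcgaacgaaacgcggagctcggga
These lie at chr1:23691801-23691830 (+), chr2:101002284-101002313 (+), chr12:120201087-120201116 (-), chr15:69452813-69452842 (+), chr3:39406715-39406744 (+), chr1:6199571-6199600 (-), chr3:170870171-170870200 (-), chr17:8383169-8383198 (-) and chr5:172958724-172958753 (+), in that order. RPL11 and RPL26L1 have 2 annotated starts each, of which 1 is shown. The tract of RPL26 ran for 12 bases and that of RPL22L1 for 6, whereas RPL26L1 had no C at its annotated start. A C followed by at least 4 pyrimidines, on the transcript strand, stood at an annotated start of 46 of 62 core genes with an entry in the table (74.2%) and of 1 of 5 paralogs, RPL22L1, against 1404 of 27305 genes in all (5.14%). Of the 87 members, 69 had an entry.

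The level of ribosomal protein mRNA as a whole overlapped between the groups. The summed level was 46154, 48001 and 49499 CPM in the siRNA1 libraries, 44822, 49421 and 48791 CPM in the siRNA2 libraries, and 42915, 46856 and 47208 CPM in the control libraries. The siRNA1 mean of 47885 ± 1676 CPM and the siRNA2 mean of 47678 ± 2494 CPM stood above the control mean of 45659.7 ± 2384 CPM by a gap similar to the SDs (n = 3 each), and the groups overlapped. The sum over the 60S genes was 29171 ± 987 CPM under siRNA1, 29096 ± 1445 CPM under siRNA2 and 27912 ± 1449 CPM in controls, and that over the 40S genes was 18713 ± 692, 18582 ± 1051 and 17748 ± 935 CPM. Both subunits showed the same order of group means, and in both the groups overlapped. As a share of all counts, the members took 4.81 ± 0.14%, 4.71 ± 0.22% and 4.6 ± 0.22%.

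**Figure D1:**
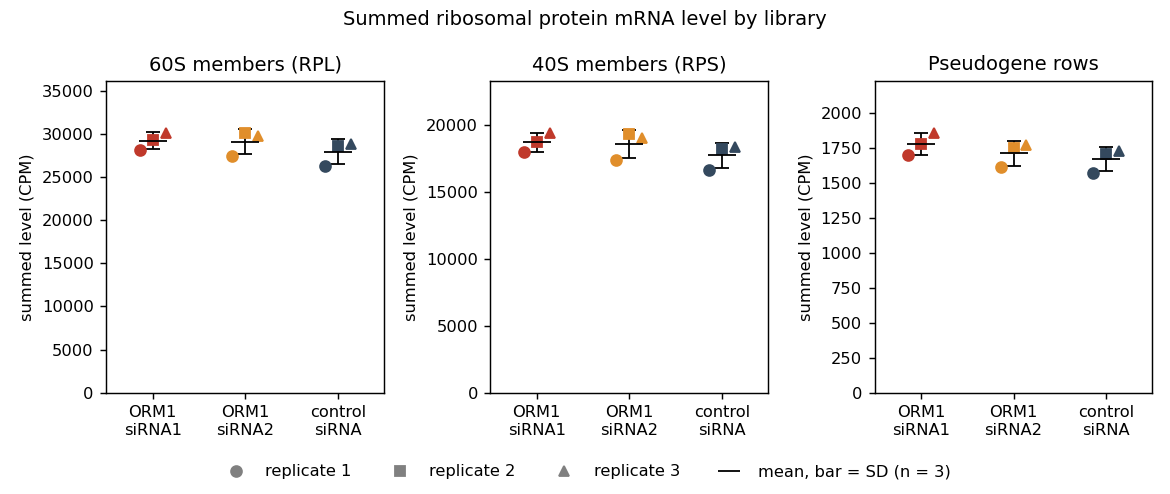
Summed level (CPM, vertical axis from 0) of the 60S genes, the 40S genes and the pseudogene rows in each library of ORM1 siRNA1, ORM1 siRNA2 and control siRNA; points are libraries, the line is the mean and the bar the SD (n = 3). In all 3 groups the library numbered 1 is the lowest, and the groups overlap.

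Much of the spread within a group was shared by the members. The library numbered 1 was the lowest of its group for 76 of 85 tested members in siRNA1, 80 of 85 in siRNA2 and 79 of 85 in control cells, whereas over all tested genes it was the lowest for 35.4%, 34.5% and 35.4%. The median coefficient of variation over 3 libraries was 3.74% for the 77 core genes under siRNA1, 6.01% under siRNA2 and 5.88% in controls. For the other 5040 tested genes within the core genes' range of mean levels, 45.1 to 2377 CPM, it was 2.65%, 3.11% and 3.01%. Mitochondrial genes took 8.34%, 8.62% and 8.49% of counts in the siRNA1 libraries, 8.04%, 8.02% and 8.09% in the siRNA2 libraries, and 8.51%, 8.34% and 8.38% in the control libraries, and their part in this pattern was not tested. The labels do not tie libraries of the same number across groups, and over all genes such libraries did not deviate together.

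**Figure D2:**
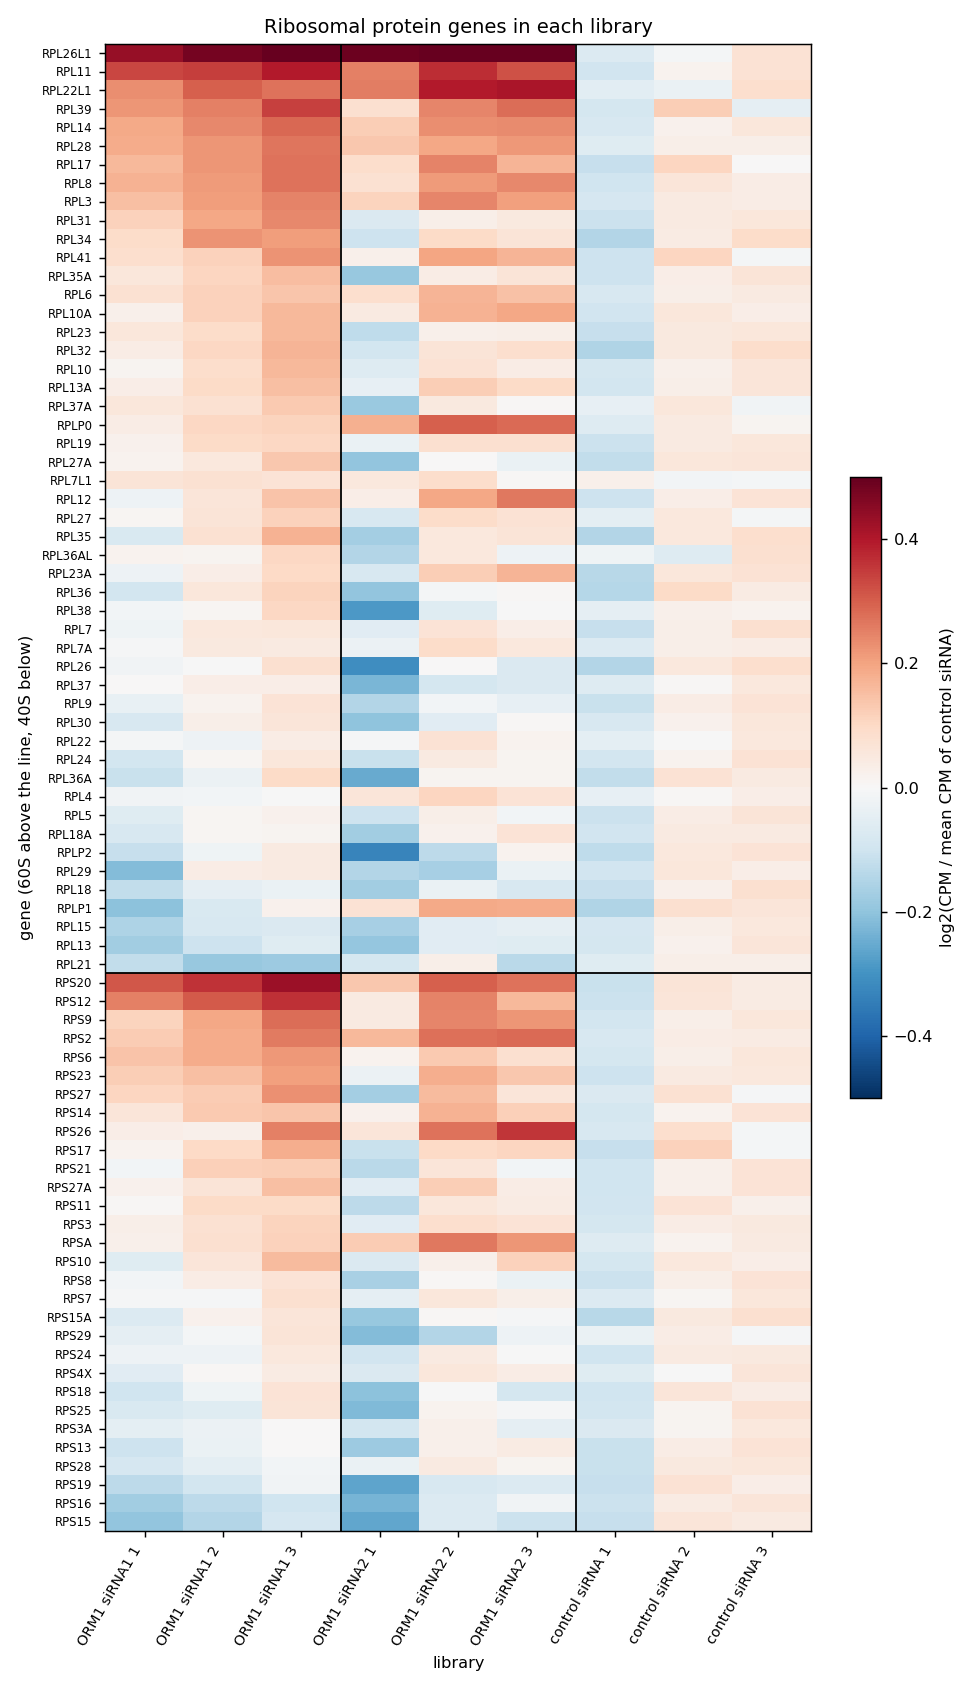
Each row is 1 of 80 ribosomal protein genes (50 of the 60S subunit above the line, 30 of the 40S subunit below), each column a library of ORM1 siRNA1, ORM1 siRNA2 or control siRNA; colour is log2 of CPM over the gene's mean CPM in control siRNA, capped at 0.5 on either side. The columns numbered 1 are bluer than the other columns of their group, while RPL26L1, RPL22L1, RPL11 and RPS20 are red in all 6 ORM1 siRNA columns.

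Against control, siRNA1 raised 17 and lowered 2 of the 85 tested ribosomal protein genes, so that 22.4% were called where 30.5% of all tested genes were (15.7% higher and 14.8% lower). In siRNA2 cells 18 rose and 2 fell, so that 23.5% were called, against 26.7% of all tested genes (14.2% higher and 12.6% lower). This order of the shares depended on the setting. The members' share was above that of all tested genes in 5 of 21 alternatives under siRNA1 and in 6 of 21 under siRNA2. Of these alternatives, 9 only left out 1 library. With the replicate number as a block, 44.7% and 43.5% of the members were called, against 30.8% and 26.7% of all tested genes. Without replicate 1 of every group, an alternative chosen after seeing the data, 28 of the 85 members were called under siRNA1 and 34 under siRNA2. All tested genes were then called at 24.0% and 20.3%, below both member shares. Without siRNA2 replicate 1 alone, 30.6% were called under siRNA2, against 22.9%. Of the 5040 other genes in the core genes' range of levels, 57.2% were called under siRNA1 and 55.6% under siRNA2. The members' changes were small. Of the 77 core genes, 75.3% lay within 10% of control under siRNA1 and 74.0% under siRNA2, and 2 and 0 lay more than 25% away. The median log2 change over the tested members was 0.062 under siRNA1, where that of all tested genes was 0.007, and 0.015 under siRNA2, where that of all tested genes was -0.004. Both comparisons use the same 3 control libraries. In siRNA1 cells 13 of the 19 calls held in each of 9 fits that left out 1 library and in each of 12 other settings, and in siRNA2 cells 10 of the 20 did. Leaving out control replicate 1, the lowest control library for most members, gave 14 higher and 6 lower under siRNA1 and 12 higher and 7 lower under siRNA2. Leaving out siRNA2 replicate 1 gave 6 lower under siRNA1, and leaving out siRNA2 replicate 2 or 3 gave 4 lower under siRNA2.

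**Figure D3:**
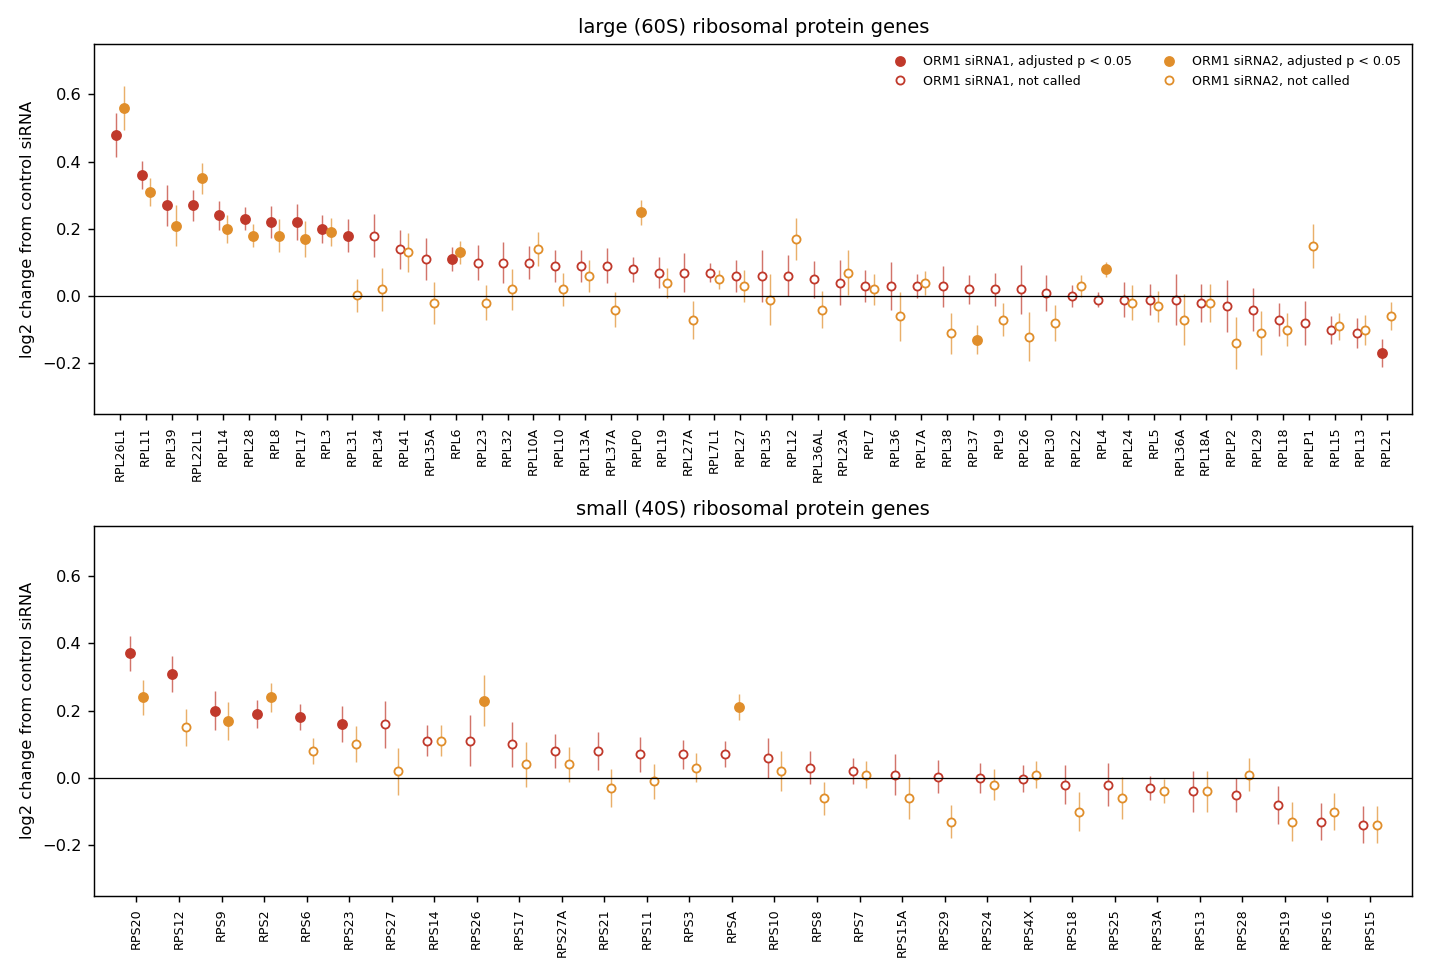
Log2 change from control siRNA (vertical axis) of 80 ribosomal protein genes under ORM1 siRNA1 and ORM1 siRNA2, with bars for the standard error; filled points have an adjusted p below 0.05. RPL26L1, RPL11, RPL39 and RPL22L1 lead the 60S panel and RPS20 and RPS12 the 40S panel, while most genes sit within 0.2 of 0.

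The partners of the 5S RNP parted. RPL11, which with RPL5 carries the 5S rRNA into the 60S subunit, measured 534, 539 and 559 CPM under siRNA1, 506, 547 and 528 CPM under siRNA2, and 397, 429 and 446 CPM in controls. All 6 ORM1 siRNA libraries lay above all 3 controls. RPL11 (ENSG00000142676) rose by 0.36 on the log2 scale (SE 0.042, adjusted p = 4.3e-05) under siRNA1 and by 0.31 on the log2 scale (SE 0.042, adjusted p = 0.00016) under siRNA2, changes of 28.3% and 24.3%. RPL5 measured 859.7, 901 and 910.2 CPM under siRNA1, 833, 915 and 888 CPM under siRNA2, and 831, 919 and 938 CPM in controls, with the groups overlapping and log2 changes of -0.01 ± 0.046 and -0.03 ± 0.046 (SE). MDM2, the ligase that both proteins bind, averaged 171 ± 3.72 CPM under siRNA1, 183 ± 13.2 CPM under siRNA2 and 234 ± 1.55 CPM in controls, and it fell by 0.45 and 0.35 on the log2 scale (adjusted p = 8.4e-06 and 7.8e-05). MDM4, a relative of MDM2, rose by 0.17 on the log2 scale (SE 0.042, adjusted p = 0.0084) under siRNA1 and was not called under siRNA2, where its log2 change was 0.07 ± 0.042 (SE).

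**Figure D4:**
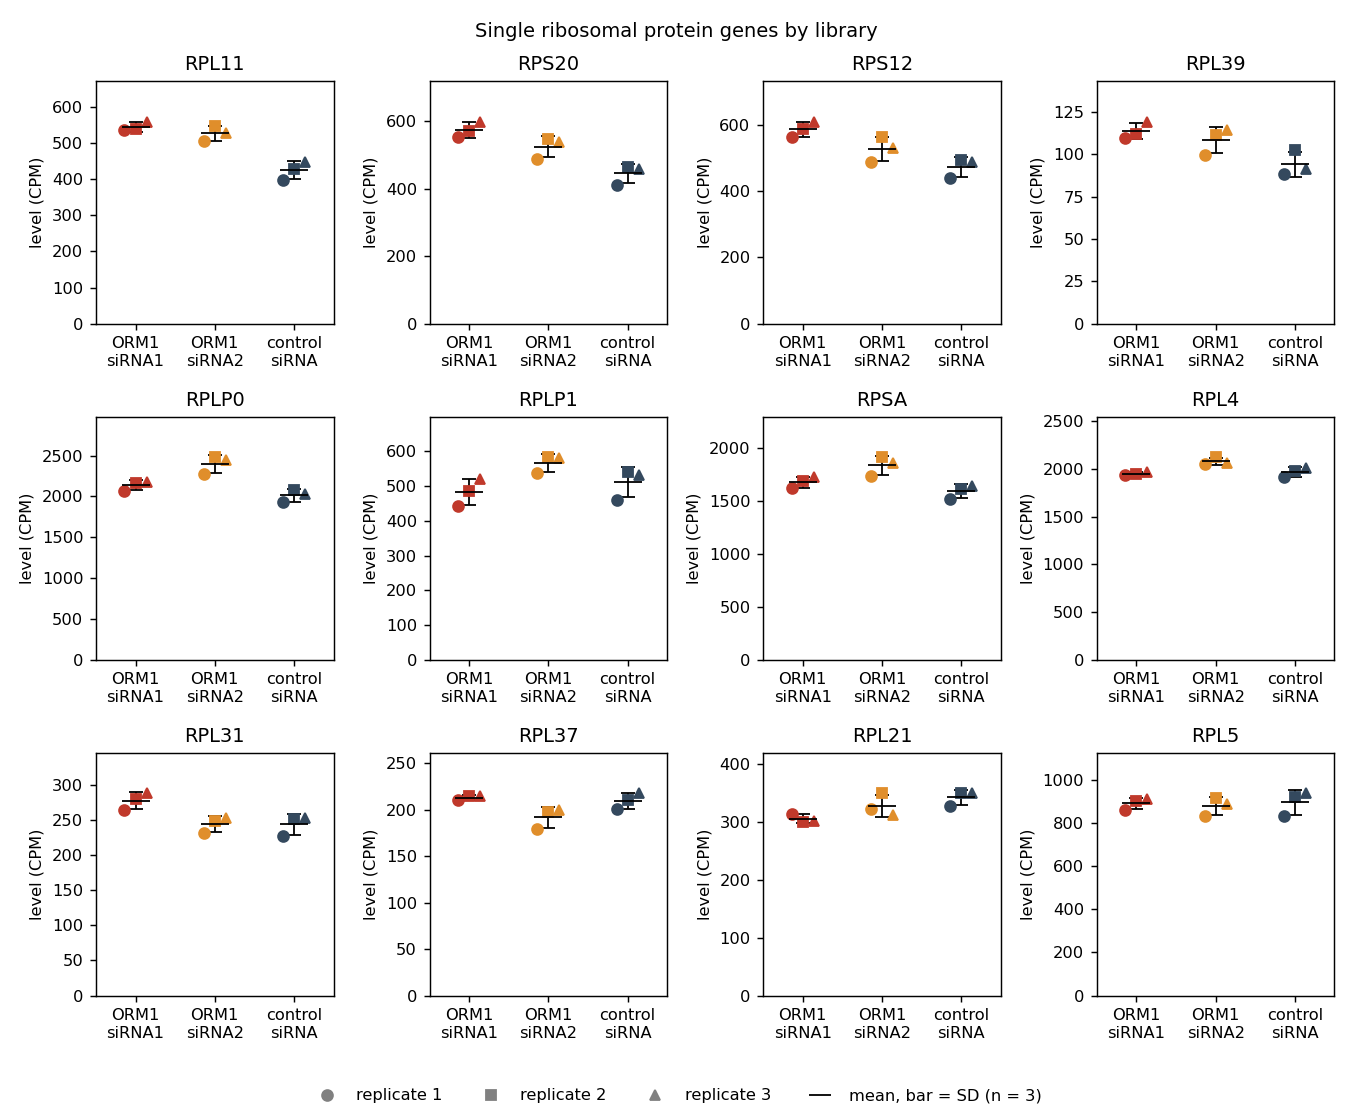
Level (CPM, vertical axis from 0) of 12 ribosomal protein genes in each library of ORM1 siRNA1, ORM1 siRNA2 and control siRNA; points are libraries, the line is the mean and the bar the SD (n = 3). RPL11 and RPS20 are higher in all 6 ORM1 siRNA libraries, RPLP0, RPSA and RPL4 are highest in the siRNA2 libraries, and the groups of RPL5 overlap.

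Of the 5 tested paralogs, 2 were called, both higher. RPL26L1, nearly the same protein as RPL26, measured 22.1, 22.7 and 23.5 CPM under siRNA1, 22.9, 24.6 and 24.6 CPM under siRNA2, and 15.6, 16.2 and 17.2 CPM in controls. It rose by 0.48 on the log2 scale (SE 0.066, adjusted p = 0.00014) under siRNA1 and by 0.56 on the log2 scale (SE 0.066, adjusted p = 5.6e-05) under siRNA2, or 39.7% and 47.3%, with both siRNA groups above the controls. RPL26, with the longest tract shown, measured 637, 644 and 683 CPM under siRNA1, 521, 646 and 614 CPM under siRNA2, and 583, 669 and 685 CPM in controls and was not called, the groups overlapping. RPL22L1, the paralog of the RNA-binding protein RPL22 and a gene that Rpl22 represses in mouse, measured 114, 119 and 116 CPM under siRNA1, 115, 127 and 128 CPM under siRNA2, and 93, 94.3 and 102 CPM in controls. Again every ORM1 siRNA library exceeded every control, and the gene rose by 0.27 on the log2 scale (SE 0.047, adjusted p = 0.00082) under siRNA1 and 0.35 on the log2 scale (SE 0.046, adjusted p = 0.00013) under siRNA2. RPL22 itself measured 272, 268 and 281 CPM under siRNA1, 273, 287 and 277 CPM under siRNA2, and 264, 273 and 283 CPM in controls, with overlapping groups and no call. The remaining paralogs gave no call: RPL7L1 averaged 209.6 ± 0.91, 206 ± 6.1 and 199.5 ± 2.94 CPM and RPL36AL 60.4 ± 2.08, 57 ± 3.88 and 58.5 ± 3.07 CPM in siRNA1, siRNA2 and control cells. RPL3L, the form of RPL3 found in skeletal and heart muscle, had at most 0.27 CPM in a library. RPL10L and RPL39L, known mainly from testis, had 0 counts in all 9 libraries, which allows up to 0.0494 CPM in the shallowest (3 counts, counting error only, and only if a count is 1 fragment).

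The P stalk recruits the translation factors that hydrolyse GTP, and consists of RPLP0 with the dimers of RPLP1 and RPLP2, set on the ribosome beside RPL12. RPLP0, its base, measured 2066, 2165 and 2178 CPM under siRNA1, 2276, 2479.6 and 2449 CPM under siRNA2, and 1927, 2079 and 2036 CPM in controls. The siRNA2 libraries were above all others, and RPLP0 rose by 0.25 on the log2 scale (SE 0.037, adjusted p = 0.00027) under siRNA2, whereas under siRNA1 its log2 change was 0.08 ± 0.037 (SE; adjusted p = 0.11). RPLP1 measured 444, 485 and 519.8 CPM under siRNA1, 538, 583 and 582 CPM under siRNA2, and 461, 540.5 and 534 CPM in controls and was called against control under neither siRNA. RPLP2 averaged 254 ± 14.2, 235 ± 28.1 and 259.5 ± 19.2 CPM and RPL12 602 ± 35.6, 647 ± 52.1 and 577 ± 35.4 CPM in siRNA1, siRNA2 and control cells, with no call for either. Against control, 1 stalk gene of 4 was called, RPLP0 under siRNA2, where 26.7% of all tested genes were called. The log2 changes under siRNA2 were 0.17 for RPL12 (SE 0.061), 0.15 for RPLP1 (SE 0.065) and -0.14 for RPLP2 (SE 0.077). Whether RPLP0 differed from the other stalk genes was not tested. In the direct comparison of the siRNAs, given below, both RPLP0 and RPLP1 were called, lower in siRNA1 than in siRNA2 cells.

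In the small subunit, 6 of 32 genes were called under siRNA1 and 6 under siRNA2, all of them higher. Both make 18.8%, against the 30.5% and 26.7% of all tested genes. RPS20, a protein of the 40S head, measured 552, 572 and 599 CPM under siRNA1, 488, 548 and 537 CPM under siRNA2, and 412, 465 and 458 CPM in controls. It rose by 0.37 on the log2 scale (SE 0.052, adjusted p = 0.0002) under siRNA1 and by 0.24 on the log2 scale (SE 0.052, adjusted p = 0.005) under siRNA2, all ORM1 siRNA libraries being above the controls. RPS12, a protein of the 40S beak that takes part in cell competition in Drosophila, measured 564, 586 and 609 CPM under siRNA1, 488, 562 and 529 CPM under siRNA2, and 439, 493 and 487 CPM in controls. It rose by 0.31 on the log2 scale (SE 0.054, adjusted p = 0.00088) under siRNA1, while under siRNA2, where 1 library fell within the control range, its adjusted p was 0.054. RPS2, which lines the entry of the mRNA channel and is the most abundant member by CPM, measured 2342, 2440.1 and 2571 CPM under siRNA1, 2399, 2594 and 2614 CPM under siRNA2, and 2029.9, 2199.8 and 2208 CPM in controls. Both siRNA groups lay above the controls, by 0.19 on the log2 scale (SE 0.043, adjusted p = 0.0047) under siRNA1 and 0.24 on the log2 scale (SE 0.043, adjusted p = 0.0012) under siRNA2. Here the counting is uncertain, since the pseudogene row RPS2P5 alone held 301 ± 10.4, 304 ± 9.96 and 262 ± 9.52 CPM in siRNA1, siRNA2 and control cells; with pseudogene counts added to their parents RPS2 was still called under both siRNAs.

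RPSA, also known as the laminin receptor, measured 1620.4, 1686 and 1725 CPM under siRNA1, 1739, 1912 and 1858 CPM under siRNA2, and 1521, 1612 and 1645 CPM in controls and rose by 0.21 on the log2 scale (SE 0.039, adjusted p = 0.0018) under siRNA2. Its siRNA2 libraries were above every control and its siRNA1 libraries overlapped the controls. RPS6, the substrate of the S6 kinases downstream of mTORC1, measured 988, 1018 and 1039.8 CPM under siRNA1, 907, 981 and 947 CPM under siRNA2, and 842, 914 and 931 CPM in controls; it rose by 0.18 on the log2 scale (SE 0.039, adjusted p = 0.0039) under siRNA1 and was not called under siRNA2. RPS26, which the chaperone TSR2 delivers to the 40S subunit (shown in yeast), averaged 216 ± 19.7, 236 ± 24.4 and 201 ± 11.4 CPM in siRNA1, siRNA2 and control cells, and its rise of 0.23 on the log2 scale (SE 0.076, adjusted p = 0.039) under siRNA2 was lost without control replicate 1 or 3 or without siRNA2 replicate 2 or 3 (adjusted p = 0.097 to 0.17). TSR2 was the only one of 7 ribosomal protein chaperones called, or 14.3% under each siRNA, against 30.5% and 26.7% of all tested genes. TSR2 averaged 34.3 ± 1.15, 32.2 ± 0.101 and 28.2 ± 0.704 CPM. It rose by 0.28 on the log2 scale (SE 0.047, adjusted p = 0.00066) under siRNA1 and 0.19 on the log2 scale (SE 0.047, adjusted p = 0.009) under siRNA2. RPS19, the gene most often mutated in Diamond-Blackfan anaemia, averaged 570.1 ± 23.2, 549 ± 41 and 602 ± 40.9 CPM, and RPS27A, made as a fusion with ubiquitin, 440.4 ± 20.7, 427 ± 26.6 and 417 ± 24.9 CPM, with no call for either.

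Other 60S genes rose by smaller steps under both siRNAs. RPL39, a short protein of the wall of the peptide exit tunnel, measured 109.7, 112 and 119 CPM under siRNA1, 99.6, 112 and 114 CPM under siRNA2, and 88.5, 102 and 91.3 CPM in controls. It rose by 0.27 on the log2 scale (SE 0.062, adjusted p = 0.0048) under siRNA1; its rise of 0.21 on the log2 scale (SE 0.062, adjusted p = 0.027) under siRNA2, where 1 library fell within the control range, was lost without control replicate 1 or 3 or siRNA2 replicate 2 or 3 (adjusted p = 0.089 to 0.11). RPL14, RPL28, RPL3 and RPL8 rose by 0.24, 0.23, 0.20 and 0.22 under siRNA1 and by 0.20, 0.18, 0.19 and 0.18 under siRNA2. Under siRNA2 the call on RPL14 was lost with pseudogene counts added to their parents (log2 change 0.11, adjusted p = 0.084). That on RPL28 was lost with scaling on the members (log2 change 0.14, adjusted p = 0.064). RPL3 and RPL8 lie by the peptidyl transferase centre, and RPL3 averaged 2005 ± 69.1, 1983 ± 90.8 and 1741 ± 85.2 CPM in siRNA1, siRNA2 and control cells. The call on RPL8 under siRNA2 was lost without control replicate 1 or siRNA2 replicate 2 or 3 (adjusted p = 0.057 to 0.075). RPL17 rose by 0.22 on the log2 scale (SE 0.054, adjusted p = 0.0084) under siRNA1, and RPL6, which rose by 0.11 and 0.13, was the smallest change called under siRNA1. RPL10, which joins the 60S subunit last, averaged 865 ± 45.2, 823 ± 40.4 and 813 ± 42.7 CPM and was not called.

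Under each siRNA 2 members were called lower. RPL21, a 60S protein, measured 314, 299.9 and 302 CPM under siRNA1, 322, 349.6 and 312 CPM under siRNA2, and 328, 349 and 349.8 CPM in controls. The siRNA1 libraries were below all controls, and RPL21 changed by -0.17 on the log2 scale (SE 0.042, adjusted p = 0.01) under siRNA1, a call that ended once the counts of its pseudogenes were added (log2 change -0.09, adjusted p = 0.22). RPL37, another 60S protein, measured 210.3, 215 and 215 CPM under siRNA1, 179, 198 and 199.7 CPM under siRNA2, and 201, 211 and 218 CPM in controls. The siRNA2 libraries lay below all controls, but its change of -0.13 on the log2 scale (SE 0.043, adjusted p = 0.045) under siRNA2 was lost without control replicate 2 or 3, siRNA2 replicate 1 or any 1 siRNA1 library (adjusted p = 0.061 to 0.17).

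The other fall, under both siRNAs, was in RPL17-C18orf32, named here after its values were seen. This readthrough gene joins RPL17 to C18orf32, and in GENCODE 29 on GRCh38 all of its 1529 exon bases lie in exons of RPL17 (611 bases) or of C18orf32 (918 bases) on chromosome 18, so how counts were split among the 3 genes is uncertain. It measured 33.5, 27.7 and 42.4 CPM under siRNA1, 16.9, 20.6 and 16 CPM under siRNA2, and 73.8, 59.5 and 73.1 CPM in controls. No library of one group reached into another: the level was lowest under siRNA2 and highest in controls, a fall of 0.99 on the log2 scale under siRNA1 (SE 0.139, adjusted p = 0.00017) and of 1.95 under siRNA2 (SE 0.145, adjusted p = 1.7e-06). Its partners moved the other way. RPL17 measured 483, 504 and 522 CPM under siRNA1, 459.8, 513 and 486 CPM under siRNA2, and 399, 466 and 432 CPM in controls. C18orf32 measured 32.1, 34.3 and 31.1 CPM under siRNA1, 27.4, 26.4 and 33.5 CPM under siRNA2, and 18.9, 23.6 and 23.6 CPM in controls, and it rose by 0.56 on the log2 scale (SE 0.102, adjusted p = 0.0012) under siRNA1 and by 0.40 on the log2 scale (SE 0.102, adjusted p = 0.011) under siRNA2. The sum of counts over the 3 genes was not tested. Under siRNA2 the call on RPL17 (adjusted p = 0.035) was lost without control replicate 1 or 3, siRNA1 replicate 2 or siRNA2 replicate 2 or 3 (0.05 to 0.14), and that on C18orf32 without siRNA2 replicate 3 (0.052).

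**Figure D5:**
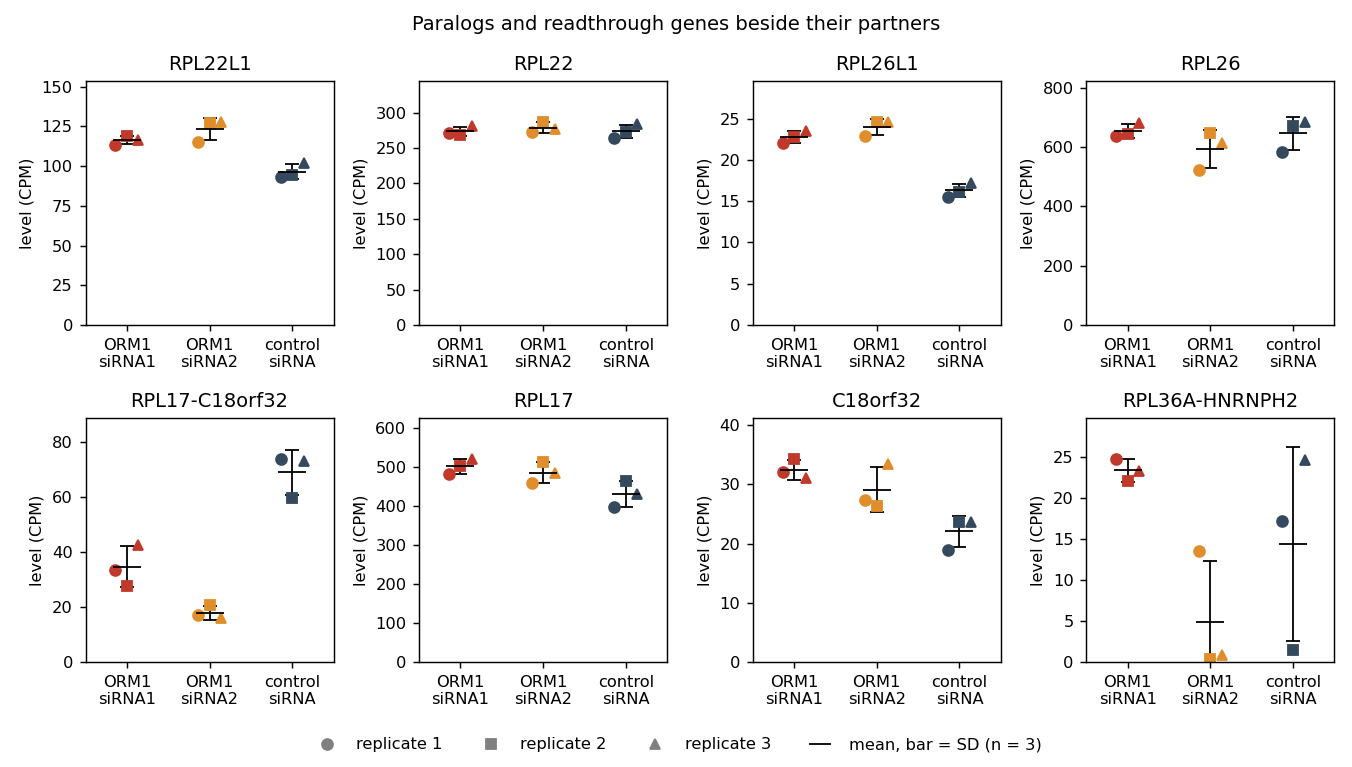
Level (CPM, vertical axis from 0) of paralogs and readthrough genes beside their partners in each library of ORM1 siRNA1, ORM1 siRNA2 and control siRNA; points are libraries, the line is the mean and the bar the SD (n = 3). RPL22L1 and RPL26L1 are higher in all 6 ORM1 siRNA libraries while RPL22 and RPL26 overlap, and RPL17-C18orf32 separates all 3 groups.

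The other readthrough genes were unstable between replicates. RPL36A-HNRNPH2 measured 24.8, 22.1 and 23.2 CPM under siRNA1, 13.5, 0.345 and 0.868 CPM under siRNA2, and 17.2, 1.46 and 24.6 CPM in controls. Libraries of the same group disagreed under siRNA2 and in controls, and the gene was called in no comparison. RPL36A averaged 125 ± 9.18, 120.4 ± 12.4 and 126 ± 9 CPM and HNRNPH2 84.2 ± 2.8, 82.8 ± 3.01 and 88.1 ± 9.26 CPM, with no call. RPS10-NUDT3 averaged 59.9 ± 2.96, 60.1 ± 14.6 and 61.3 ± 14.2 CPM beside RPS10 at 414 ± 31.3, 405 ± 26.3 and 398 ± 20.2 CPM, and neither was called. NUDT3 rose by 0.27 on the log2 scale (SE 0.037, adjusted p = 0.00013) under siRNA1 and was not called under siRNA2.

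The 2 ORM1 siRNAs were compared directly to see which members they affected unequally. siRNA1 gave a higher level than siRNA2 for 3 members and a lower level for 4, so that 8.24% of 85 were called, against 17.9% of all tested genes (8.09% higher and 9.83% lower). Among the core genes 88.3% lay within 10% between the siRNAs. RPLP0 was lower in siRNA1 than in siRNA2 cells, with a difference of -0.17 on the log2 scale (SE 0.037, adjusted p = 0.0071). RPL17-C18orf32 was higher in siRNA1 than in siRNA2 cells, with a difference of 0.95 on the log2 scale (SE 0.144, adjusted p = 0.00068). These were the 2 of 7 calls that held without each library in turn and in the 12 other settings. RPLP1 was also lower, all its siRNA1 libraries being below all its siRNA2 libraries, and differed by -0.23 on the log2 scale (SE 0.065, adjusted p = 0.027). RPSA was lower and differed by -0.13 on the log2 scale (SE 0.039, adjusted p = 0.035). RPL4, whose loop reaches into the exit tunnel, measured 1941, 1949 and 1964 CPM under siRNA1, 2051, 2121 and 2064 CPM under siRNA2, and 1913, 1976 and 2012 CPM in controls and was lower, differing by -0.09 on the log2 scale (SE 0.023, adjusted p = 0.017). In the other direction, RPL31, a protein at the rim of the exit tunnel, measured 264, 279 and 288 CPM under siRNA1, 231, 248 and 252 CPM under siRNA2, and 226, 251 and 253 CPM in controls and was higher under siRNA1 than under siRNA2, by 0.18 on the log2 scale (SE 0.049, adjusted p = 0.022). RPL37 was higher by 0.15 on the log2 scale (SE 0.043, adjusted p = 0.03). These 5 calls did not hold without every library. RPLP1 was lost without siRNA1 replicate 1 or 2 or siRNA2 replicate 2 or 3 (adjusted p = 0.072 to 0.11) and RPSA without any of the same 4 libraries or control replicate 2 (0.05 to 0.13). RPL31 was lost without siRNA1 replicate 2 or 3 or siRNA2 replicate 1 (0.069 to 0.099), RPL37 without any 1 siRNA1 library or siRNA2 replicate 1 (0.058 to 0.11), and RPL4 without siRNA1 replicate 1 or 2 (0.055 and 0.063). The counts moved to 5 higher and 5 lower without control replicate 1, to 1 higher without siRNA1 replicate 2 or 3, and to 1 lower without siRNA1 replicate 1 or 2.

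Against control, RPL31 rose by 0.18 on the log2 scale (SE 0.049, adjusted p = 0.012) under siRNA1, a call lost without siRNA1 replicate 3 (adjusted p = 0.063), and RPL4 by 0.08 on the log2 scale (SE 0.023, adjusted p = 0.023) under siRNA2, lost without control replicate 1 or 2 or siRNA2 replicate 2 (0.053 to 0.077). RPS9 and RPS23, which lie at the mRNA entry and the decoding centre, were also called: RPS9 rose by 0.20 under siRNA1 and 0.17 under siRNA2, and RPS23 by 0.16 under siRNA1. All 3 of these calls, and that on RPL6 under siRNA1, were lost without control replicate 1 (adjusted p = 0.083, 0.15, 0.16 and 0.1) and without 2 or more other libraries.

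With scaling factors taken from the members themselves, a choice made after the common shift of the libraries numbered 1 was seen, the members are centred on 0, so that some must lie below it. The median log2 change of all tested genes became -0.062 under siRNA1 and -0.047 under siRNA2. On this scale 12 members were higher and 8 lower under siRNA1, and 11 higher and 9 lower under siRNA2. Both make 23.5% of 85, against 21.8% and 15.9% of all tested genes. RPL26L1 remained the largest called rise, at 0.41 under siRNA1 and 0.52 under siRNA2.

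Per kilobase of coding sequence, the control level of the members ranged widely. The highest were RPL41, whose coding sequence is only 75 bases long, at 5524 CPM per kilobase, RPS2 at 2441 and RPL13A at 2202. The lowest tested members were RPL3L at 0.138 CPM per kilobase, RPL26L1 at 37.5 and RPL36A-HNRNPH2 at 40.8. RPL26 stood at 1484 CPM per kilobase, so that its paralog remained the minor form. RPS28, the lowest of the core genes at 219.7 CPM per kilobase, is uncertain. Its row held 45.5 ± 2.95 CPM in controls while the pseudogene row RPS28P7 held 63.8 ± 1.59 CPM. In all, 1604 rows of ribosomal protein pseudogenes were left out. Together they held 1781 ± 77.9, 1712 ± 86.7 and 1673 ± 85 CPM in siRNA1, siRNA2 and control cells. Of the 222 tested, 8 rose and 1 fell under siRNA1, and 3 rose and 2 fell under siRNA2. These are 4.05% and 2.25%, against 30.5% and 26.7% of all tested genes.

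The members were also counted by other properties. Of 18 genes mutated in Diamond-Blackfan anaemia, an inherited failure of red cell production, 2 were called under siRNA1, RPL11 and RPL31, and 2 under siRNA2, RPL11 and RPS26, all higher. Both make 11.1%, against 30.5% and 26.7% of all tested genes. Of 25 genes that host small nucleolar RNAs in their introns, 5 rose and 1 fell under siRNA1, and 6 rose and 1 fell under siRNA2, or 24.0% and 28.0%, near the same background. Core genes with the TOP tract had a median log2 change of 0.066 under siRNA1 (46 genes) and those without it 0.044 (16 genes), and of 0.01 and 0.025 under siRNA2. Between the siRNAs the difference fell with coding length: the median log2 difference, siRNA1 over siRNA2, was 0.092 over the 25 core genes with the shortest coding sequences, 0.044 over the 27 in the middle and 0.01 over the 25 with the longest. Across the 77 genes, which share their libraries, Pearson's r was -0.36 and Spearman's rho -0.48, given as a description. Against control, r was -0.03 and rho 0.01 under siRNA1, and r was 0.22 and rho 0.29 under siRNA2.

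Of the ribosomal proteins that do not carry RPL or RPS names, FAU and RACK1 were not called in any of the 3 comparisons. RACK1, the scaffold protein of the 40S head, averaged 1140.2 ± 23.4, 1169 ± 50.3 and 1146 ± 43 CPM in siRNA1, siRNA2 and control cells. A further list held 28 other transcripts known for a TOP tract, such as the mRNAs of elongation factors and the noncoding RNAs SNHG1 and GAS5. Of the 20 with an entry for their start, 14 had the tract. Of the 28, 9 rose and 2 fell under siRNA1 and 14 rose and 1 fell under siRNA2. These are 39.3% and 53.6%, against 30.5% and 26.7% of all tested genes and 57.2% and 55.6% of the other genes in the core genes' range of levels. HNRNPA1, a splicing regulator, averaged 1475 ± 17.4, 1535 ± 36.7 and 1056 ± 24.6 CPM and rose by 0.48 on the log2 scale (SE 0.025, adjusted p = 5.3e-08) under siRNA1 and 0.54 on the log2 scale (SE 0.025, adjusted p = 4.6e-08) under siRNA2. PABPC4, a poly(A)-binding protein, rose by 0.35 and 0.49, and IPO5, an importin that carries ribosomal proteins into the nucleus, by 0.19 and 0.36. VIM, the intermediate filament protein vimentin, averaged 6.33 ± 0.813, 10.7 ± 0.568 and 11.6 ± 0.864 CPM and fell by 0.87 under siRNA1 (adjusted p = 9.9e-05). Between the siRNAs, 1 of these 28 genes was higher and 11 were lower in siRNA1 cells. This is 42.9%, against 17.9% of all tested genes. Of the other genes in the core genes' range of levels, 41.15% were called between the siRNAs, 715 higher and 1359 lower.

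Regulators of TOP mRNAs and of mTORC1 were called in both directions: 2 of 19 rose and 7 fell under siRNA1, and 3 rose and 9 fell under siRNA2. This is 47.4% and 63.2%, against 30.5% and 26.7% of all tested genes. Of the other genes in the core genes' range of levels, 57.2% and 55.6% were called. DDIT4, an inhibitor of mTORC1, averaged 356 ± 3.8, 379.8 ± 10.4 and 272 ± 9.62 CPM and rose by 0.39 on the log2 scale (SE 0.032, adjusted p = 2.3e-06) under siRNA1 and 0.48 on the log2 scale (SE 0.032, adjusted p = 7.1e-07) under siRNA2. LARP1B, a relative of LARP1, rose by 0.29 and 0.44, whereas LARP1 averaged 214 ± 4.64, 227 ± 4.61 and 217 ± 7.49 CPM and was not called. SESN1, which restrains mTORC1 when amino acids are short, fell by 0.35 and 0.40, and RHEB, the GTPase that activates mTORC1, by 0.29 under siRNA1 and 0.22 under siRNA2, the call under siRNA2 being lost without control replicate 2 or 3 or siRNA2 replicate 1. Of 29 translation initiation factors, 3 rose and 8 fell under siRNA1 and 11 rose and 3 fell under siRNA2, and in the direct comparison 13 were called, all lower in siRNA1 than in siRNA2 cells. These are 37.9%, 48.3% and 44.8%, against 30.5%, 26.7% and 17.9% of all tested genes. Of the other genes in the core genes' range of levels, 57.2%, 55.6% and 41.15% were called. EIF3C, a subunit of the factor that binds the 40S subunit, averaged 318 ± 23.6, 354 ± 10.4 and 268 ± 4.81 CPM and rose by 0.25 and 0.40, and DENR, which recycles 40S subunits, rose by 0.35 and 0.22. EIF4A1, the helicase that unwinds the start of mRNAs, measured 823, 871 and 413 CPM under siRNA1, 901, 1009.6 and 1026 CPM under siRNA2, and 445, 502 and 731 CPM in controls, and its call under siRNA2 (adjusted p = 0.023) was lost without control replicate 1 or 2 or siRNA2 replicate 2 or 3.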

How the data were processed

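The deposited table holds whole-number counts per Ensembl gene identifier for 9 libraries, which the authors did not normalise, per the labels. Per the submitters' processing notes the build was hg19. The sources used here give no aligner, counting tool, annotation or strand setting, so reads of overlapping, antisense and near-identical genes cannot be told apart. Names, exons and coding lengths came from GENCODE 29 (GRCh38), and start sequences from RefSeq. edgeR 4.0.16 (R 4.3.3) kept 20932 genes by filterByExpr, scaled them by TMM and fitted all 9 libraries in 1 quasi-likelihood model. Standard errors (SE) were derived as the absolute log2 change divided by the root of the F statistic. Counts of list members carry no set test. On simulated data the test recovered 12% of 50 changes of 1.1-fold and 100% of 50 changes of 1.25-fold, with 8 false among 164 calls. The simulated libraries had no shift shared by many genes, unlike the libraries numbered 1 here. Alternatives were other scalings and filters, DESeq2 1.42.0, limma-voom 3.58.1, fits of 2 groups, pseudogene counts added to parents, and leaving out libraries. Intervals and floors cover counting error only. Named were the 6 largest called rises and falls per comparison, the 3 highest and 3 lowest per length, fixed structural groups, paralogs, and up to 4 called genes per list. Values of a few single genes are not reported here, although counts and sums include them. The members, lists and tests were chosen with earlier results of these data known.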

Additional observations from a re-analysis of the deposited data

Results flagged for a closer look

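The siRNAs differed from each other, by a direct test in the shared edgeR model, for 7 ribosomal protein genes, of 85 tested. The log2 difference, siRNA1 over siRNA2, was 0.95 for RPL17-C18orf32, 0.18 for RPL31 and 0.15 for RPL37. It was -0.09 for RPL4, -0.17 for RPLP0, -0.23 for RPLP1 and -0.13 for RPSA. Of these, RPL17-C18orf32 and RPLP0 were called in every alternative tried.

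RPSA2, a gene outside the member list that resembles RPSA, averaged 31 ± 1.4 CPM under siRNA1, 34.1 ± 0.747 CPM under siRNA2 and 29.3 ± 1.51 CPM in controls (SD, n = 3). It rose by 0.22 on the log2 scale under siRNA2 (edgeR adjusted p = 0.011), beside the rise of 0.21 in RPSA, and reads shared between both genes cannot be told apart.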

How the results depend on the processing

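None of the members named above reversed a call under the alternatives tried. Higher and lower are given in that order for siRNA1 over control, siRNA2 over control, and siRNA1 over siRNA2, where the counts were 17 and 2, 18 and 2, and 3 and 4. Over the fits without 1 library, or without replicate 1 of every group, those called higher ranged from 13 to 20, 12 to 24 and 1 to 5, and those called lower from 2 to 8, 1 to 10 and 1 to 6. The labels do not state that the replicate numbers pair the libraries. Over all genes the correlations of same-numbered libraries were -0.191 to 0.0541. This does not test pairing for the members, whose lowest library was mostly number 1 in every group. With the replicate number as a replicate block the counts were 32 and 6, 25 and 12, and 18 and 6, or 44.7%, 43.5% and 28.2% of the members, against 30.8%, 26.7% and 18.1% of all tested genes. DESeq2 called 5 and 5 lower under siRNA1 and siRNA2 and 9 higher between the siRNAs. Scaling by total counts gave 5 and 7 lower and 8 higher between the siRNAs. A minimum of 1 CPM in 3 libraries gave 4 and 4 lower, and fits of only the groups compared 6 and 1 lower. Without a filter 1 was lower under siRNA2, and 1 was higher and 2 were lower between the siRNAs. With pseudogene counts added, 1 was lower under siRNA1 and the summed level there was 49668 CPM, against 47885 CPM. Scaling on the members gave 12 and 8, 11 and 9, and 1 higher between the siRNAs. This scaling and the fit without replicate 1 of every group were chosen after seeing the data. The cause of these shifts was not tested. Depth limits the members with few counts: 2 of the 87, at 0 counts, were not tested.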
